A study of Homo sapiens with 20 samples.

Results

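The genes described here are 35 enzymes and complex subunits that write, read or erase methyl groups on histones and on DNA, followed in HepaRG cells. They were taken as a list of names, by a rule that uses no measured values, though chosen with earlier results of these data known. The list comprises 11 genes grouped as writers of histone H3 lysine 4 (H3K4) methylation with their complex partners and 13 histone demethylases. It also holds 4 members of Polycomb repressive complex 2 (PRC2) and 7 genes of DNA methylation and its removal. Of the 35, 31 were matched to a probe through its RefSeq accession and 29 passed the filter on dim signals, out of 22214 genes that passed in all. No probe was matched here for SETD1B, KDM5A, EED and TET3. KDM1B and KDM6B had probes, but these were not well above background on all 4 arrays of any condition, and neither gene was tested.

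HepaRG, derived from a human liver tumor, is a line of bipotent progenitors that can become hepatocyte-like and biliary-like cells in culture. RNA came from progenitors at day 4 after seeding (D4), from committed cells at day 15 (D15), from cells kept without dimethyl sulfoxide (DMSO) to day 30 (D30 − DMSO), from cells given 2% DMSO from day 15 to day 30 (D30 + DMSO), and from such cells after a further 4 days without it, at day 34 (D34 ± DMSO). All cultures were of this 1 line in a medium with serum, insulin and hydrocortisone, and each condition had 4 one-color arrays, described as independent experiments. All values are log2 levels on a scale where 0 is the 75th percentile of the array.

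Cells keep a pattern of gene activity through chemical marks on chromatin. Methylation of H3K4 by KMT2 and SETD1 enzymes marks active promoters and enhancers, whereas PRC2 places repressive methylation on H3 lysine 27 through either of its alternative catalytic subunits, EZH2, typical of dividing cells, or EZH1, typical of resting and differentiated cells. DNA methylation is copied at each replication by DNMT1, which UHRF1 brings to hemimethylated DNA, while DNMT3A and DNMT3B set new methylation and TET enzymes oxidise it towards removal.

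The 20 arrays lay on 4 slides scanned in 2 sessions. Their 75th percentiles were between 407 and 766 intensity units, and the r of 2 arrays of one condition, across genes, was 0.955 to 0.992. Arrays on the same slide deviated from their condition means in the same direction (median r of 0.387 over 44 pairs of arrays of different conditions), so that values within slides are given below. Among hepatocyte markers, 8 of 8 were higher at D15 than at D4, with a median log2 difference of 3.43, and HNF4A was well above background on 0 of 4 arrays of D4 and on every array of the other conditions. The labels call the cells hepatic stem cells. Of 6 biliary and progenitor markers, CFTR and EPCAM were not well above background on any array. SOX9 rose with DMSO addition by 1.31 and fell on removal by 2.09, and SPP1 did the reverse, at -1.78 and 2.22. KRT7 and KRT19 were also tested and were well above background on every array. Of the 4 tested, 2 rose from D4 to D15, 1 of them called, and 1 fell, against 12.5% and 11.2% of all genes. Of 5 tested markers of other cells, CD68 was called, higher at D15 than at D4 by 1.41. The RNA is of mixed cultures, so fewer cells of a type and less RNA per cell cannot be told apart.

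Most of the 29 genes varied little over the protocol. The ratio of the highest to the lowest condition mean had a median of 1.56 over the 29, and also of 1.56 over all 22214 genes. It stayed under 2-fold for 24 of the 29 (82.8%), against 72.2% of all genes. The exceptions were UHRF1 with a 29.4-fold span, EZH2 with 4.62-fold, DNMT1 with 2.59-fold and EZH1 with 2.22-fold, and KDM4D, whose 2.35-fold has a lowest condition that was well above background on 1 of 4 arrays. The span of UHRF1 was 8.28-fold with normexp background correction and 11.6-fold with the median of its probes. H3K4 writers and their partners had a median span of 1.33-fold, from 1.16-fold for WDR5 to 1.65-fold for KMT2C. The single narrowest gene was the demethylase KDM2A at 1.14-fold. A moderated F-test over the 5 conditions called 2 of the 29, EZH2 and UHRF1, against 5.37% of all genes, at a Bonferroni-adjusted p below 0.001 and over 3-fold.

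**Figure D1:**
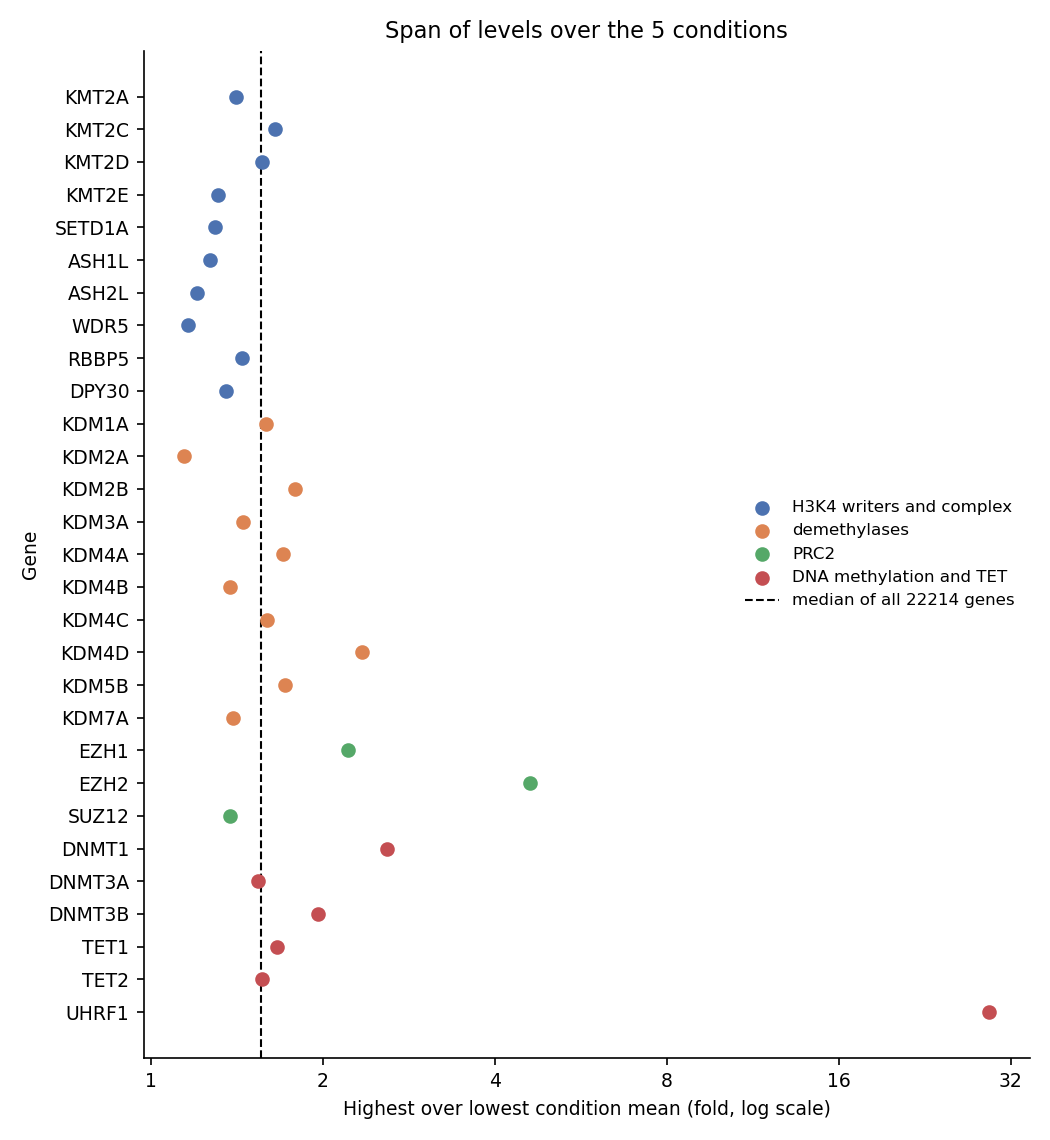
Each point is 1 gene, placed on the x axis by the ratio of its highest to its lowest condition mean (fold, log scale), with genes grouped by role on the y axis and the dashed line at the median of all genes. UHRF1 stands apart at 29.4-fold, and all 10 H3K4 writers and partners lie under 2-fold.

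Pairs of conditions were compared with limma at 2 levels. A gene was called at a Benjamini-Hochberg adjusted p below 0.005 with more than a 2-fold difference, and it is said to have risen or fallen at an adjusted p below 0.05. From D4 to D15, 3 of the 29 genes were called, all lower, against 9.49% of all genes in either direction, 3.7% lower and 5.79% higher. At the second level 7 passed, against 23.7%, of which 6 fell and 1 rose, against 11.2% and 12.5% of all genes. From D15 to D30 − DMSO limma called 0 of the 29, against 0.0045% of all genes, and 0 passed the second level, against 0.045%. No member had an unadjusted p below 0.05 at that step, and the methods' t-test with adjustment also called 0.

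DMSO addition, D30 + DMSO against D30 − DMSO, called 0 of the 29 by limma and by the methods' t-test, against 5.92% of all genes by limma (1.73% higher and 4.18% lower). The methods' t-test called 2.62% of all genes. An unadjusted p below 0.05 was found for 9 of the 29, against 28.8% of all genes, and with adjustment 5 passed, against 18.5% of all genes, of which 3 rose and 2 fell, against 8.38% and 10.1%. DMSO removal, D34 ± DMSO against D30 + DMSO, called 3, against 7.06% of all genes, of which 2 were higher and 1 lower, against 4.96% and 2.1%. At the second level 11 passed, against 22.1%, and 6 rose and 5 fell, against 10.7% and 11.4%. Cells withdrawn from DMSO were also set against cells never exposed to it. There 3 genes were called, against 1.52% of all genes, and all 3 were higher (1.31% higher and 0.212% lower over all genes). At the second level 4 passed, against 4.74%, and all 4 were higher (2.66% higher and 2.08% lower over all genes). These 3 comparisons share arrays, so their values are given side by side and not as separate evidence. Where the arrays of conditions are said to lie apart, the share of all genes that separate in this way is not given. No condition held day 34 cells kept in DMSO or never exposed to it. For D34 ± DMSO, withdrawal and the further 4 days of culture therefore cannot be told apart.

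**Figure D2:**
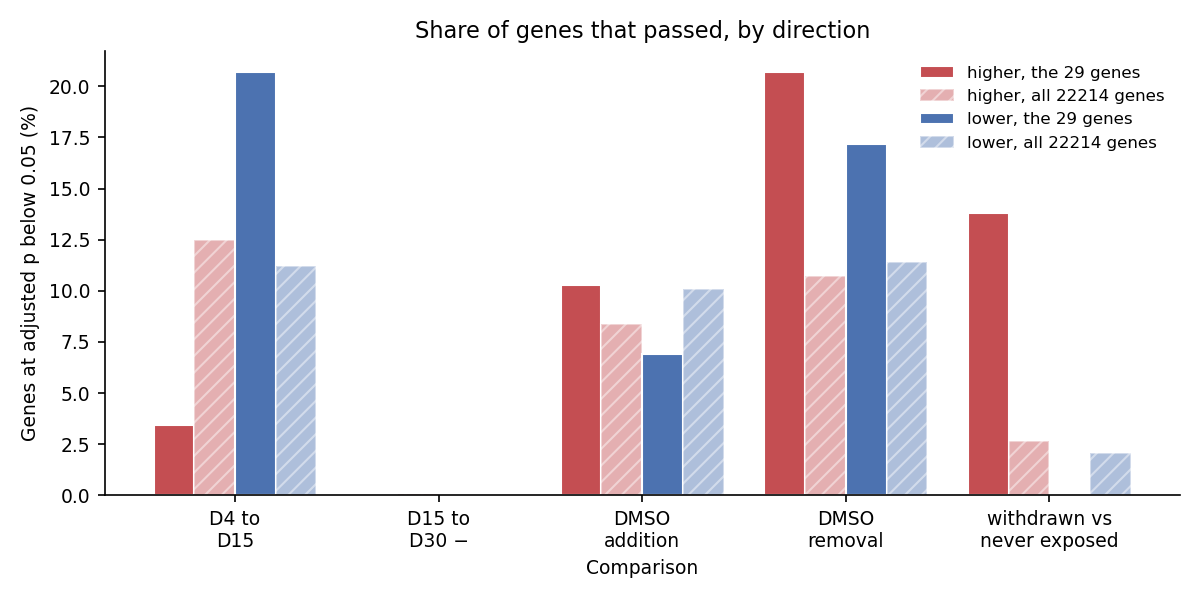
Bars give the percentage of genes at an adjusted p below 0.05 in each comparison on the x axis, red for higher and blue for lower, solid for the 29 genes and hatched for all 22214. The share of lower genes from D4 to D15 (6 of 29) and of higher genes after withdrawal (4 of 29) exceeds that of all genes. So do both shares on DMSO removal (6 and 5 of 29). With DMSO addition the higher share was 10.3% (3 of 29), against 8.38% of all genes. The lower share was 6.9% (2 of 29), against 10.1%. These differences in share were not tested.

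UHRF1, EZH2, DNMT1 and DNMT3B were high in D4 progenitors, low from D15 to D30 with or without DMSO, and high again 4 days after DMSO was removed. UHRF1 (NM_013282) is the protein that reads hemimethylated DNA and recruits DNMT1. On the 4 arrays of D4 its log2 level was 0.12, 0.29, 0.53 and 0.36, and at D15 it was -3.87, -3.15, -3.07 and -2.72. The lowest D4 array thus lay far above the highest D15 array. At D30 − DMSO the levels were -4.15, -3.90, -3.29 and -1.38, and at D30 + DMSO -4.76, -4.61, -4.95 and -3.88. After removal they were -1.49, -0.16, -0.14 and 0.08. Replicate 4 of D30 − DMSO and replicate 1 of D34 ± DMSO stood apart from their groups, and these arrays overlap.

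UHRF1 fell 11.5-fold from D4 to D15, a log2 difference of -3.53 (SE 0.47, n = 4 arrays per condition, adjusted p = 1.4e-05). It rose 17.4-fold on DMSO removal, by 4.12 (SE 0.47, adjusted p = 3.9e-06). Against never exposed cells, withdrawn cells were 6.73-fold higher (2.75, SE 0.47, adjusted p = 0.0012). That last call was lost without any one of D30 − DMSO replicates 1, 2 and 3 or D34 ± DMSO replicates 2, 3 and 4, with an adjusted p between 0.0051 and 0.0067, and it missed 0.05 by the methods' t-test, at 0.13. With DMSO addition the difference was -1.37 (SE 0.47, 95% interval -2.36 to -0.38), with an adjusted p of 0.051 and of 0.012 with the slide as a block. A second UHRF1 probe, well above background on 15 of 20 arrays, gave -2.36 from D4 to D15, 1.70 on removal and 1.66 after withdrawal, all called, but -0.04 with DMSO addition. The DMSO addition value of UHRF1 therefore rests on 1 of its 2 probes. Without D30 − DMSO replicate 4 the DMSO addition difference was -0.77 (adjusted p = 0.17), and with normexp it was -0.56 (adjusted p = 0.24). It passed without D15 replicate 1, D30 − DMSO replicate 1 or 2, D30 + DMSO replicate 4 or D34 ± DMSO replicate 1, at between -1.69 and -1.37. Within slides it was -0.53 on one slide and -3.04 on the slide with that D30 − DMSO array. The other UHRF1 differences within slides lay between -3.99 and -3.26 from D4 to D15, between 3.87 and 4.50 on removal and between 1.46 and 3.33 after withdrawal. With normexp the difference on removal was 2.39.

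EZH2 (NM_004456), the PRC2 methyltransferase of dividing cells, had the smallest error of the 4. It stood at 1.08, 1.07, 1.03 and 0.65 at D4. It lay at -1.13, -1.08, -0.98 and -1.08 at D15, at -1.34, -1.20, -1.17 and -1.25 at D30 − DMSO, and at -1.29, -0.87, -0.95 and -0.95 at D30 + DMSO. After removal the arrays read 0.70, 1.31, 0.89 and 0.98. The D4 and D34 ± DMSO arrays thus lie together, above the other 12, with no overlap. EZH2 fell 4.07-fold from D4 to D15 (log2 difference -2.02, SE 0.14, adjusted p = 5.0e-09) and rose 3.95-fold on DMSO removal (1.98, SE 0.14, adjusted p = 2.1e-08). Withdrawn cells were 4.62-fold above never exposed cells (2.21, SE 0.14, adjusted p = 1.2e-07). With DMSO addition the difference was 0.22, with a 95% interval from -0.07 to 0.52 and an adjusted p of 0.33. Within the 3 slides that held both conditions, the D4 to D15 difference was between -2.20 and -1.68. Within slides it was between 1.87 and 1.93 on removal and between 2.13 and 2.47 after withdrawal.

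DNMT1 (NM_001130823), the maintenance DNA methyltransferase, moved less. Its D4 arrays read 0.94, 0.48, 0.61 and 0.44, and those of D34 ± DMSO 0.00, 0.75, 0.14 and 0.63. Between these, the levels were -0.44, -0.34, -0.63 and -0.64 at D15, -0.86, -0.84, -0.64 and -0.69 at D30 − DMSO, and -0.61, -0.51, -0.75 and -0.36 at D30 + DMSO. No array of these 12 reached the lowest array of D4 or of D34 ± DMSO. DNMT1 fell 2.18-fold from D4 to D15 (-1.13, SE 0.17, adjusted p = 4.2e-05) and was 2.20-fold higher in withdrawn than in never exposed cells (1.14, SE 0.17, adjusted p = 0.00022). On removal it rose by 0.94 (SE 0.17, adjusted p = 0.00037), which is 1.92-fold and under the 2-fold limit, and it passed that limit without D30 + DMSO replicate 4 or without D34 ± DMSO replicate 1 or 3, where the rise was between 1.00 and 1.06. With DMSO addition the difference was 0.20 (95% interval -0.15 to 0.55). Within slides DNMT1 differed by between -1.38 and -0.94 from D4 to D15, between 0.63 and 1.19 on removal and between 0.93 and 1.39 after withdrawal. The withdrawn call ended with only the arrays compared and by the methods' t-test, at adjusted p of 0.018 and 0.041, and with normexp the fall from D4 to D15 was just under 2-fold and no longer called.

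DNMT3B (NM_175850), a de novo DNA methyltransferase, was read by a dimmer probe. It fell by 0.88 from D4 to D15 (SE 0.18, adjusted p = 0.0013) and rose by 0.78 on DMSO removal (SE 0.18, adjusted p = 0.0041). Withdrawn cells were 0.92 above never exposed cells (SE 0.18, adjusted p = 0.0044). Its arrays at D4 read -3.08, -3.13, -3.19 and -3.22, and those of D15 -3.66, -4.16, -4.13 and -4.18. All D4 arrays were higher. At D30 − DMSO they read -4.09, -4.14, -3.71 and -4.56, at D30 + DMSO -3.78, -3.75, -4.16 and -4.26, and after removal -3.20, -2.96, -3.54 and -3.14. The arrays after removal lay above all 12 of D15 and D30. Without D15 replicate 1 it fell by 1.00 and was called, and its withdrawn difference was called without D30 − DMSO replicate 3 or D34 ± DMSO replicate 3, at 1.06 and 1.03. With only the arrays compared and by the methods' t-test the withdrawn difference did not pass, at adjusted p of 0.061 and 0.096. Across the 32 alternatives the smallest differences of DNMT3B were -0.403 from D4 to D15, 0.288 on removal and 0.353 after withdrawal. From D4 to D15 and on removal DNMT3B kept an adjusted p below 0.05 under all 32. Within slides it differed by between -0.97 and -0.57 from D4 to D15, between 0.39 and 1.07 on removal and between 0.72 and 1.43 after withdrawal.

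**Figure D3:**
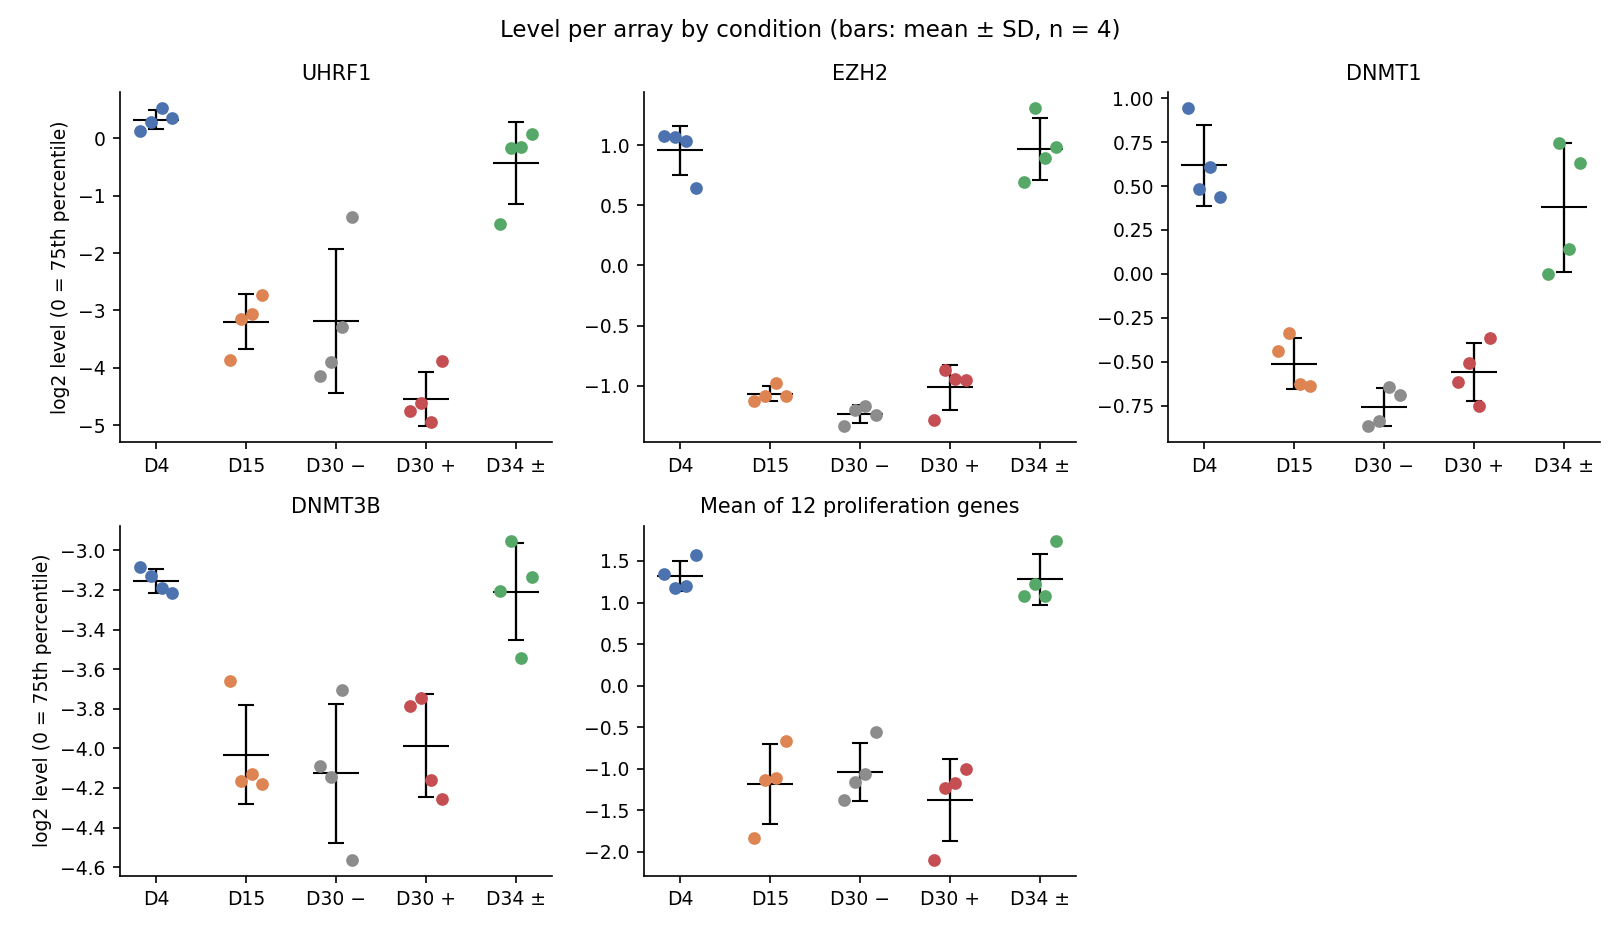
Points are single arrays, placed by condition on the x axis and by log2 level on the y axis (0 is the 75th percentile of the array), with bars at the mean ± SD of 4 arrays; the last panel gives the mean of 12 proliferation genes. In each panel the D4 and D34 ± DMSO means lie above those of the other 3 conditions, and in the UHRF1 panel 1 array of D30 − DMSO overlaps D34 ± DMSO.

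Between D15 and D30 − DMSO none of the 4 passed the test. The 95% interval of the difference ran from -0.97 to 1.01 for UHRF1, from -0.46 to 0.12 for EZH2 and from -0.60 to 0.10 for DNMT1. Over all 29 genes the differences at this step lay between -0.36, for EZH1, and 0.15.

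Genes of cell division took the same course in these cultures. A list of 12 proliferation genes, among them MKI67, CDK1, PCNA and MCM2, had array means between 1.18 and 1.57 at D4, between -2.10 and -0.56 over D15, D30 − DMSO and D30 + DMSO, and between 1.08 and 1.74 at D34 ± DMSO. All 12 were called lower from D4 to D15 (median log2 difference -2.93, against 0.04 over all genes) and all 12 higher on DMSO removal (median 2.75, against -0.07). In withdrawn against never exposed cells 11 of the 12 were called higher, with a median of 2.43. With DMSO addition 0 of the 12 were called and 1 fell, with a median of -0.27. The part of proliferation in the course of UHRF1, EZH2, DNMT1 and DNMT3B was not tested.

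The promoters of the 4 genes called in at least 1 comparison are shown here, so that UHRF1, EZH2 and DNMT1 can be read beside EZH1, described next. DNMT3B, which took the same course but was not called, is not shown. Each is the 250 bases before the gene start in RefSeq (GRCh38.p14), 5′ to 3′ on the strand of the gene, and lower case marks all bases except the motifs. Capitals mark CCAAT, the box bound by NF-Y, and the E2F motifs TTTCCCGC and TTTGGCGC, searched on both strands.

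UHRF1, chr19:4909251-4909500, plus strand: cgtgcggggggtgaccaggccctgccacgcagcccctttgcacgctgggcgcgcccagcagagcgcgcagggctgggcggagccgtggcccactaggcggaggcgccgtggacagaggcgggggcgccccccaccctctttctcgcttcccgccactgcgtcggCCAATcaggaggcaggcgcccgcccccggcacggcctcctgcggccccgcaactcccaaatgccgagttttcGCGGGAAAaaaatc

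EZH2, chr7:148884292-148884541, minus strand: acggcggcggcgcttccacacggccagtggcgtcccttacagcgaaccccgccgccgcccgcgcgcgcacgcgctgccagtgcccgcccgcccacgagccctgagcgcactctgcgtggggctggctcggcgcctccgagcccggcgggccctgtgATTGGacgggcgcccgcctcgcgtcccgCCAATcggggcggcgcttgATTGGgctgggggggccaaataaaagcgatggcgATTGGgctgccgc

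DNMT1, chr19:10194954-10195203, minus strand: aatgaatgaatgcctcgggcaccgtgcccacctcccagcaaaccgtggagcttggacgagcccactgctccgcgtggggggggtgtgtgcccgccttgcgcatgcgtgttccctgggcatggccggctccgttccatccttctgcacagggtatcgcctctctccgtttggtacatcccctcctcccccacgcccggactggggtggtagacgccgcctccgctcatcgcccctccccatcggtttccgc

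EZH1, chr17:42745041-42745290, minus strand: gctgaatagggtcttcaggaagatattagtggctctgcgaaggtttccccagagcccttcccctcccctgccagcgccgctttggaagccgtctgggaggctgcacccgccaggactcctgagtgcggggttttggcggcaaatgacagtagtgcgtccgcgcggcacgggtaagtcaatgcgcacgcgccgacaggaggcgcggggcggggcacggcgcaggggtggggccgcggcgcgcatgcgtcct

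UHRF1 holds the E2F motif TTTCCCGC on its other strand, as GCGGGAAA, at position -14 from the start, and 1 CCAAT box. EZH2 holds 4 CCAAT boxes, at positions -94, -66, -47 and -13, and TTTGGCGC begins at the second base after the start, outside the stretch shown. DNMT1 and EZH1 hold none of these motifs in the window of 300 bases that runs from 250 before to 50 after the start. In that window DNMT3B holds 1 CCAAT box, at position -113, and neither E2F motif. Over all 35116 promoters of the table, 2.27% hold either E2F motif, and 34.6% hold CCAAT. Among the 32 listed genes with a promoter in the table, 4 hold an E2F motif (12.5%), namely EZH2, UHRF1, SUZ12 and KDM1B, and 11 hold CCAAT (34.4%). The CHR motifs TTTGAA and TTCGAA, which mark many late cell cycle promoters, occur in 5 of the 32 (15.6%) and in 16.4% of all promoters, and in none of the 4 shown.

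EZH1, KDM4A, KDM4C and DNMT3A each passed the test both with DMSO addition and on its removal, in opposite directions, and kept this under every alternative run, as KDM4D did not. EZH1 (NM_001991), the PRC2 subunit of resting cells, moved opposite to EZH2 from D4 to D15 and on DMSO removal. Its levels were -1.52, -1.67, -1.49 and -1.50 at D4, -0.42, -1.05, -0.74 and -1.20 at D15, and -1.25, -1.37, -0.92 and -1.29 at D30 − DMSO. At D30 + DMSO the arrays read -0.50, -0.70, -0.21 and -0.19, all above those of D30 − DMSO, and after removal -1.43, -1.01, -1.57 and -1.58. EZH1 rose 1.62-fold from D4 to D15 (0.69, SE 0.18, adjusted p = 0.0071) and was 1.75-fold higher with DMSO (0.81, SE 0.18, adjusted p = 0.0030). It fell by 1.00 on removal (SE 0.18, adjusted p = 0.00040), which is 2.00-fold and only just past the limit. Without D30 + DMSO replicate 3 or 4, or D34 ± DMSO replicate 1, 3 or 4, the fall was between 0.93 and 0.99 and no longer called, at adjusted p between 0.0016 and 0.0023, and it was also under 2-fold with quantile normalization and with the deposited matrix, at -0.98 in both, and with normexp, at -0.79. With only the arrays compared and by the methods' t-test the call ended on its p, at 0.0080 and 0.017 after adjustment. With the slide as a block the fall was 1.06 and called (adjusted p = 0.00016). Within slides EZH1 differed by between 0.44 and 1.09 from D4 to D15, between 0.65 and 1.09 with DMSO addition and between -1.39 and -0.90 on removal. Withdrawn and never exposed cells differed by -0.19 (95% interval -0.57 to 0.18, adjusted p = 0.78).

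KDM4A and KDM4C are demethylases of H3K9 and H3K36. KDM4A (NM_014663) read -0.52, -0.32, -0.27 and -0.30 at D30 − DMSO, 0.38, 0.52, 0.49 and 0.30 at D30 + DMSO, and -0.10, -0.45, -0.31 and -0.12 after removal. KDM4C (NM_015061) read -1.57, -1.37, -1.34 and -1.39, then -0.96, -0.69, -0.62 and -0.69, and then -1.51, -1.05, -1.47 and -1.58. For both genes the 4 arrays with DMSO lay above all 8 arrays of the other 2 conditions. KDM4A rose 1.71-fold with DMSO addition (0.77, SE 0.13, adjusted p = 0.00032) and fell by 0.66 on removal (SE 0.13, adjusted p = 0.0010). KDM4C rose 1.60-fold (0.68, SE 0.13, adjusted p = 0.00095) and fell by 0.66 (SE 0.13, adjusted p = 0.00094). Withdrawn and never exposed cells differed by 0.11 for KDM4A (95% interval -0.17 to 0.38) and by 0.02 for KDM4C (-0.26 to 0.29). Within the 2 slides that held both D30 conditions, DMSO addition gave between 0.69 and 0.97 for KDM4A and between 0.73 and 0.75 for KDM4C.

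DNMT3A (NM_175629), the other de novo DNA methyltransferase, went the opposite way. It read -0.86, -1.04, -0.96 and -0.73 at D30 − DMSO, -1.33, -1.26, -1.50 and -1.25 at D30 + DMSO, and -0.85, -0.79, -0.78 and -0.67 after removal. The 4 arrays with DMSO were lower than the other 8. Its highest mean was at D4, at -0.71, against -0.97 at D15. That difference of -0.25 missed the threshold in the fit over all arrays (adjusted p = 0.083). It passed with the slide, the scan session or the replicate number as a block (0.033, 0.029 and 0.033) and by the methods' t-test (0.0094). DNMT3A fell by 0.44 with DMSO addition (SE 0.10, adjusted p = 0.0047) and rose 1.48-fold on removal (0.56, SE 0.10, adjusted p = 0.00045). Within slides these differences were between -0.65 and -0.43 and between 0.48 and 0.71. A second probe gave -0.41 and 0.70, of which the first missed the threshold at an adjusted p of 0.29 and the second passed at 0.046. Withdrawn and never exposed cells differed by 0.13 (95% interval -0.08 to 0.34). The mean of 8 hepatocyte markers was also at its highest with DMSO, with array means between 5.98 and 6.38 at D30 + DMSO, between 5.00 and 5.22 at D30 − DMSO and between 4.84 and 4.99 after removal. CYP3A4 was the 1 of the 8 called with DMSO addition, at 4.07, 2 of the 8 rose, and the median of the 8 was 0.55. Their part in these differences was not tested.

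**Figure D4:**
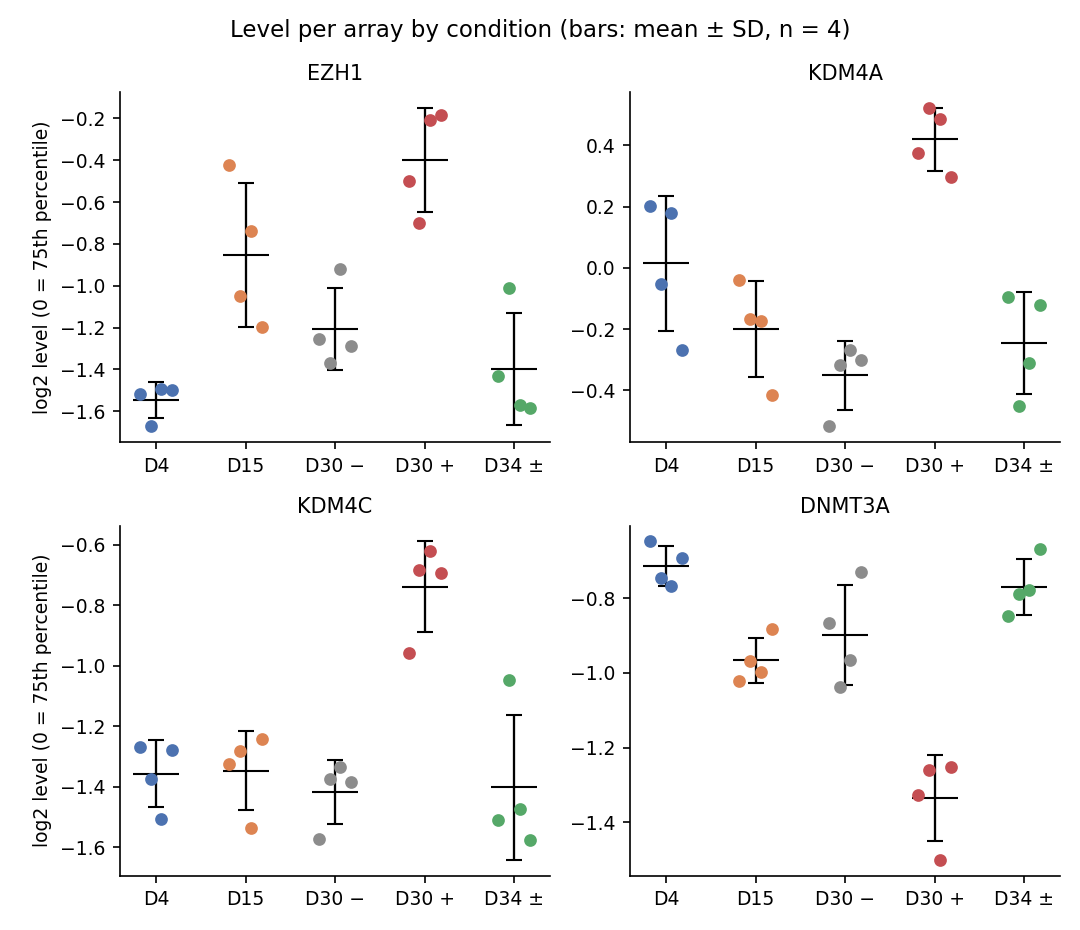
Points are single arrays of EZH1, KDM4A, KDM4C and DNMT3A, placed by condition on the x axis and by log2 level on the y axis (0 is the 75th percentile of the array), with bars at the mean ± SD of 4 arrays. The D30 + DMSO arrays lie above those of D30 − DMSO and D34 ± DMSO for EZH1, KDM4A and KDM4C, and below them for DNMT3A.

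KDM4D, a testis-rich member of the same family, was dim, with a probe well above background on 14 of 20 arrays and on 1 of 4 at D30 + DMSO. It fell by 0.89 with DMSO addition (adjusted p = 0.048) and rose by 1.08 on removal (adjusted p = 0.014). The first value missed the threshold under 19 of the 31 alternatives run for it, and with the slide as a block it was -1.17 and called (adjusted p = 0.0010). The second missed it under 5 of 31, with normexp at 0.24 (adjusted p = 0.22), with quantile normalization at 0.90 (0.21), with only the arrays compared (0.050), by the methods' t-test (0.10) and without D34 ± DMSO replicate 4 at 0.86 (0.056), and it was called without D30 + DMSO replicate 3, at 1.32. With normexp the first was -0.16. KDM4B fell by 0.41 on removal (adjusted p = 0.045) by its brightest probe, while a second probe gave 0.16, and the first value missed the threshold under 17 of 32 alternatives. With DMSO addition it differed by 0.32 (adjusted p = 0.14), and by 0.38 with the slide or the scan session as a block (0.031 and 0.017).

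Writers of H3K4 methylation and their partners had small differences by the probes used. KMT2A, KMT2C, KMT2D and SETD1A are H3K4 methyltransferases, and KMT2E and ASH1L were listed with them. WDR5, RBBP5, ASH2L and DPY30 form the core module that KMT2 and SETD1 enzymes share. The 10 tested differed by between -0.18 and 0.70 from D4 to D15, between -0.13 and 0.36 with DMSO addition, and between -0.44 and 0.48 on removal. Of these, DPY30 alone passed at the second level, and it fell by 0.44 on DMSO removal (SE 0.12, adjusted p = 0.014). DPY30 did not pass when the fit used only the arrays compared, at an adjusted p of 0.0595. KMT2C had the largest difference, 0.70 from D4 to D15 at an adjusted p of 0.089, which was 0.87 and 0.0050 with the slide as a block and lay between 0.58 and 1.36 within 3 slides. KMT2A and ASH1L also passed with the slide as a block, at 0.63 and 0.52. A dimmer KMT2A probe, well above background on 14 of 20 arrays, passed from D4 to D15 at 0.94 and on removal at 0.89, where the probe used gave 0.42 and 0.39 and did not pass. SETD1A differed by 0.36 with DMSO addition at an adjusted p of 0.059, and of 0.045 with the slide as a block.

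Among the other demethylases, KDM1A, KDM2A, KDM2B, KDM3A, KDM5B and KDM7A had no difference at an adjusted p below 0.05. KDM1A and KDM5B erase methylation from H3K4, KDM3A from H3K9, KDM2A and KDM2B from H3K36 and KDM7A from H3K9 and H3K27. KDM2B was the nearest, at -0.61 from D4 to D15 (adjusted p = 0.056), and it passed at -0.64 and 0.026 with the slide as a block, as did KDM1A at -0.73 and 0.012. SUZ12, a core PRC2 subunit, fell by 0.46 from D4 to D15 (adjusted p = 0.029) and lost that without any one of D4 replicates 1, 2 and 3 or D15 replicates 1 and 4, at adjusted p between 0.060 and 0.11. TET2 fell by 0.51 from D4 to D15 (adjusted p = 0.0077), but 2 other TET2 probes that entered the fit gave -0.31 and -0.30 and did not pass. TET1 differed by 0.73 on DMSO removal without passing in the fit over all arrays, and with the slide as a block its difference was 0.56 at an adjusted p of 0.043.

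**Figure D5:**
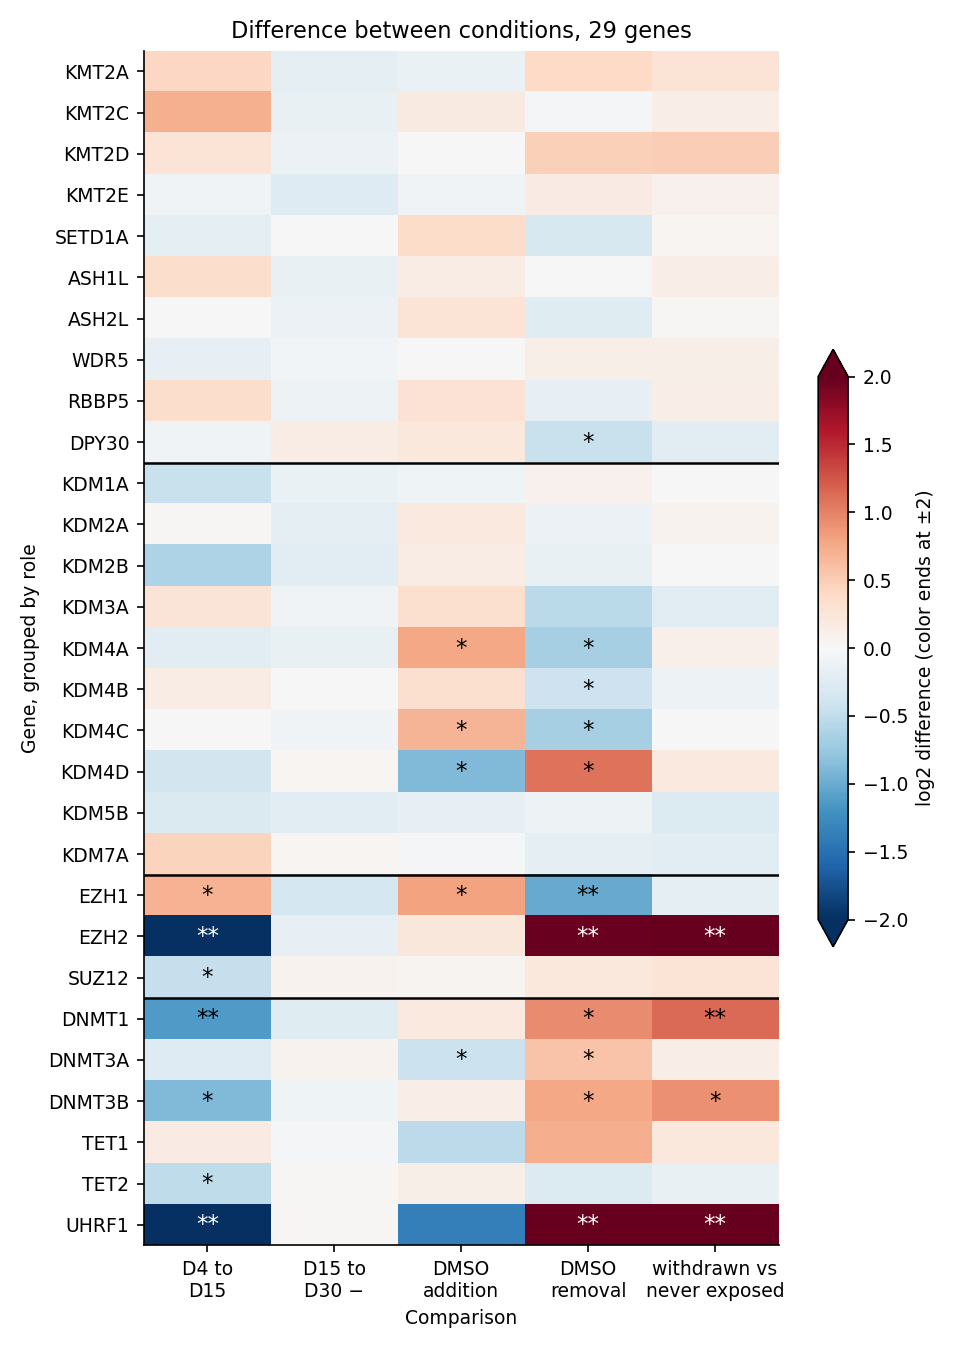
Each row is 1 of the 29 genes, grouped by role, and each column 1 comparison, colored by the log2 difference between conditions; a star marks an adjusted p below 0.05 and a pair of stars a call at below 0.005 with more than 2-fold. UHRF1 and EZH2 carry the deepest colors, the demethylases KDM4A, KDM4C and KDM4D are colored and starred with DMSO addition and removal, and the H3K4 writers hold 1 star, at DPY30.

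Genes that work with these enzymes were read from 5 further lists. Of 23 other Polycomb genes, PHF19, an accessory subunit of PRC2, was the 1 called in any comparison. It fell by 2.69 from D4 to D15 (SE 0.30), fell by 1.48 with DMSO addition (SE 0.30, adjusted p = 0.0014), rose by 3.35 on removal (SE 0.30) and was 1.88 higher in withdrawn than in never exposed cells (SE 0.30). From D4 to D15, 6 of the 23 fell and 1 rose, against 11.2% and 12.5% of all genes. Of 10 other DNA methylation genes tested, HELLS, a chromatin remodeler needed for DNA methylation, fell by 1.31 from D4 to D15 (SE 0.28, adjusted p = 0.0018), rose by 2.24 on removal (SE 0.28) and was 1.73 higher after withdrawal (SE 0.28). TDG, the glycosylase that excises oxidised methylcytosine, fell by 1.01 from D4 to D15 (SE 0.17). Of 15 other histone methyltransferases 6 fell from D4 to D15 and 0 rose, against 11.2% and 12.5% of all genes. On DMSO removal 3 of the 15 rose and 0 fell, against 10.7% and 11.4%. After withdrawal 3 were higher and 0 lower, against 2.66% and 2.08%. The H3K9 enzyme SUV39H2 was called lower from D4 to D15, by 1.41 (SE 0.20), and the H3K36 enzyme NSD2 was called higher in withdrawn cells, at 1.11 (SE 0.19). None of 11 other H3K4 genes or 10 other demethylases was called in any of the 5 comparisons by limma. Over all genes the share called ran from 0.0045% to 9.49% by comparison. From D4 to D15, 3 of these H3K4 genes and 1 of these demethylases fell and 0 rose, against 11.2% and 12.5% of all genes. With DMSO addition 1 H3K4 gene rose and 2 fell, and 1 demethylase rose and 0 fell, against 8.38% and 10.1%. On removal 1 H3K4 gene rose and 1 demethylase fell, against 10.7% and 11.4%. After withdrawal 1 H3K4 gene rose, against 2.66%.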

How the data were processed

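The data are 20 one-color Agilent arrays of HepaRG cells, 4 for each of 5 conditions. For each array the authors deposited Feature Extraction output (version 10.7.1.1 in the file headers, 10.7.3.1 in the submitters' processing notes), whose processed signal is an intensity, background-subtracted in each array but with no scaling across arrays. Flags for each spot, 0 or 1, come from the same deposited files. A log2 table from the authors was deposited as well, and its values match the scaled log2 signal of 21535 probes with a median absolute difference of 3.58e-07 apart from 1 baseline per probe and array shifts of at most 0.113.

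After leaving out flagged outlier spots, the spots of each probe were averaged, divided by the 75th percentile of the array, given a floor of 1 intensity unit and put on a log2 scale. A probe entered the fit if some condition had it well above background on each of its 4 arrays (26531 of 42405), and the brightest stood for its gene. One limma fit (limma 3.58.1, R 4.3.3, data.table in version 1.17.8) over 20 arrays with 5 condition means gave all tests, with Benjamini-Hochberg adjustment over 22214 genes, and its steps were checked on simulated data. A moderated F-test called genes at a Bonferroni-adjusted p below 0.001 and over 3-fold. Probes were named through RefSeq accessions, with a current symbol for 24826. Promoters came from RefSeq (GRCh38.p14), 32 of the 35 genes matching. Every member was accounted for. Array values are given for those called and for DNMT3B, and at D30 and D34 for KDM4A, KDM4C and DNMT3A. The members, lists and array values given were chosen with earlier results of these data known. The number of arrays limits precision. Alternatives were quantile normalization, normexp with an offset of 50, the deposited matrix, 2 other filters, the median of probes, a floor of 10, a block for slide, scan session or replicate number, a fit of just the arrays of a comparison, the t-test and analysis of variance of the methods, and leaving out each array.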

Additional observations from a re-analysis of the deposited data

Results flagged for a closer look

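In 8 of 145 groups of 4 arrays of a gene, 1 array lay far from the other 3 by Dixon's ratio, and chance alone flags about 1 group in 20. UHRF1 at D34 ± DMSO replicate 1 was at -1.49, against -0.16 or more on the other 3. EZH2 at D4 replicate 4 was at 0.65, against 1.03 or more. DNMT3B at D15 replicate 1 was at -3.66, above the other 3 at -4.13 or less. EZH1 at D4 replicate 2 was at -1.67, against -1.52 or more. KMT2A at D4 replicate 4 was at -0.71, against -0.09 or more, and RBBP5 at D34 ± DMSO replicate 4 was at -4.48, against -3.60 or more. KDM7A was flagged at D30 + DMSO replicate 4, at -1.16 above the others at -2.01 or less, and at D34 ± DMSO replicate 3, at -2.71 below the others at -1.77 or more.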

How the results depend on the processing

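Over 4625 values of the genes and comparisons under the alternatives, 54 lost and 47 gained an adjusted p below 0.05, 21 lost and 12 gained a call, and no difference that had passed changed direction. From D4 to D15, 13 genes passed the adjusted p of 0.05 with the slide as a block and 11 with the scan session as a block, against 7, while the share of all genes went from 23.7% to 36.1% and 35%. For DMSO addition 8 passed with the slide, the scan session or the replicate number as a block, against 5, with 29.5%, 28.7% and 26.8% of all genes against 18.5%, and KDM4D was called, 1 gene, with the slide or the scan session as a block. After withdrawal, the fit of only the arrays compared and the methods' t-test each called 1 gene and left 2 at an adjusted p below 0.05, against 3 and 4, with 2.89% and 3.1% of all genes at the second level against 4.74%. The moderated F-test called EZH2 and UHRF1, and 1 of them, EZH2, under quantile normalization, with no filter and by analysis of variance. Leaving out each array gave 3 to 4 calls and 6 to 8 passing genes from D4 to D15, 0 and 4 to 7 for addition, 2 to 3 and 10 to 12 for removal, 2 to 3 and 4 after withdrawal, 0 from D15 to D30 − DMSO, and 1 to 2 by the F-test, where UHRF1 was lost without 13 of the 20 arrays. Whether replicate numbers pair the samples is not stated, and they were not treated as pairing. Over 40 pairs of arrays with the same number, deviations correlated between -0.33 and 0.80 (median 0.27, 27 of them over 0.1). Over 120 pairs with different numbers the median was -0.17, with 43 over 0.1. Replicate 4 of every condition lay on the same slide, so number and slide cannot be fully told apart. The replicate block changed no other count of the 29 genes by more than 1.5 times. For all genes it raised the share at the second level after withdrawal to 8.68%, from 4.74%. The scan session as a block moved the median of all genes on DMSO removal to -0.13, from -0.07. The causes of these changes were not tested. Signal over background limits KDM4D and the second UHRF1 probe, but not these alone. With normexp the span of UHRF1 went from 29.4-fold to 8.28-fold, and the probe of DNMT3B was also dim.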
